A study of Mus musculus with 12 samples.

Results

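The chemokine receptors Ccr4, Ccr6, Ccr7, Ccr8, Cxcr3, Cxcr4, Cxcr5 and Cxcr6 and the lipid receptor S1pr1 were followed in mouse CD8 T cells with and without STAT3. These 9 genes were taken from a list, each through its 1 probe set with a single gene symbol, out of 22180 genes measured, and 8 of them were bright enough to be tested. The groups were Tc17 STAT3-/-, Tc17 WT, Tc1 STAT3-/- and Tc1 WT. STAT3-/- cells were Cd4cre+ STAT3fl/fl, with a Cre recombinase driven by Cd4. Splenic naive CD8 T cells of WT and STAT3-/- origin shared each culture at a 1:1 ratio and were activated with anti-CD3 (1 µg/ml) and anti-CD28 (3 µg/ml). IL-12 (Tc1) or IL-6 and TGF-beta (Tc17) were present for 3 days, IL-2 followed for 1 day, and sorting by allelic markers then parted the genotypes. Each group had biological arrays 1 and 2 and a technical array, which was averaged with biological array 2, so that n was 2 samples per group.

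Chemokine receptors are G protein-coupled receptors that steer migrating cells toward gradients of small secreted proteins, and the set a T cell carries decides which tissues it can enter. S1PR1 works in the same way on sphingosine 1-phosphate, a lipid that is rich in blood and lymph, and lets T cells leave lymphoid organs. CCR7 guides T cells into lymph nodes, CXCR3 is the classic receptor of type 1 cells, and CCR6 is the classic receptor of type 17 cells. STAT3 carries signals of the IL-6 receptor to the nucleus, and the comparison of the 4 groups asks which receptors followed STAT3 and which followed the culture condition.

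Stat3 itself checked the labels. It averaged 7.78 ± 0.03 (SD, n = 2) in Tc17 STAT3-/- and 10.63 ± 0.13 in Tc17 WT cells, and 7.37 ± 0.42 in Tc1 STAT3-/- and 10.04 ± 0.14 in Tc1 WT cells, on the log2 scale used for all levels here. The 5 measured CD8 T cell markers averaged 10.75 to 11.07 on every array, while the 3 CD4 T cell markers averaged 4.52 to 5.05. Array medians lay between 3.95 and 4.10. The Tc17 WT technical array stood apart, with a median correlation of 0.933 with the other arrays, against 0.961 to 0.986 for the rest. In every group the technical array differed more from biological array 2 (SD of the differences 0.209 to 0.352) than the biological arrays did from each other (0.144 to 0.192). Values per array are therefore given in the order biological 1, biological 2, technical.

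Loss of STAT3 changed most of these receptors in Tc17 cells. Ccr4, Ccr7, Cxcr5, Cxcr6 and S1pr1 fell, Ccr8 rose, and Cxcr3 and Cxcr4 did not pass the test. In Tc1 cells STAT3 loss called none of them. Of the 8 tested, 5 were lower and 1 higher in Tc17 STAT3-/- than in Tc17 WT cells, by limma (adjusted p below 0.05 after Benjamini-Hochberg). Of all 9862 genes in the test, 25.1% were called in this comparison, 6.83% as lower and 18.2% as higher. Of the receptors called, Cxcr5 and Ccr8 were tested only because the group where each was highest reached the brightness filter, a group mean of 5. With that filter at 6, which left fewer receptors to test, 4 were lower and 0 higher. The median log2 change was -0.93 over the 8 receptors and 0.114 over all genes, and all 6 calls and their directions stood under each of 4 other scalings of the arrays. In Tc1 cells limma called 0 of 8 (1 at an unadjusted p under 0.05), against 0.0608% of all genes. The receptors were chosen with results of these data known, so these shares describe the list and test nothing about it.

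**Figure D1:**
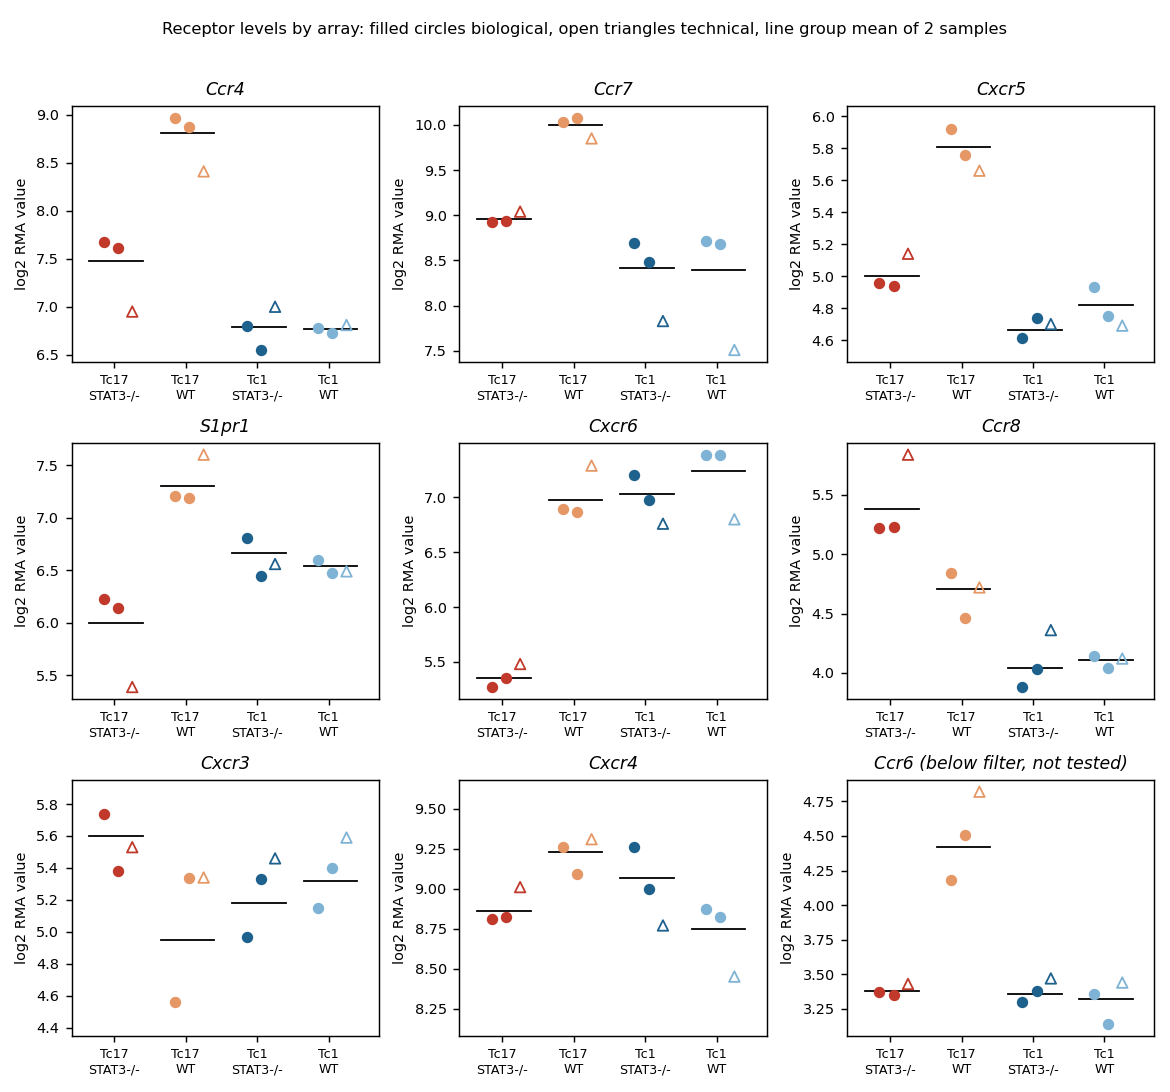
Log2 RMA values (vertical axis) of the 9 receptors on each of the 12 arrays, by group (horizontal axis), with filled circles for biological arrays, open triangles for technical arrays and a line at the mean of the 2 samples. Cxcr6 was low only in Tc17 STAT3-/- cells (5.27 to 5.48), Ccr4, Ccr7, Cxcr5 and Ccr6 were highest in Tc17 WT cells, and Ccr8 was highest in Tc17 STAT3-/- cells (5.22 to 5.84).

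Cxcr6 showed the largest genotype difference of the list in Tc17 cells. CXCR6 binds CXCL16, a membrane-anchored chemokine, and is known for holding effector and resident CD8 T cells in tissues such as liver and lung. Its level was 5.27, 5.35 and 5.48 in Tc17 STAT3-/- cells, against 6.89, 6.87 and 7.29 in Tc17 WT cells. Tc1 levels were 7.20, 6.98 and 6.76 in STAT3-/-, against 7.39, 7.39 and 6.80 in WT. All 3 Tc17 STAT3-/- arrays lay below all 9 others, while the other 3 groups overlapped. The change was -1.64 ± 0.14 (SE, 95% interval -1.96 to -1.31) on the log2 scale in Tc17, a 3.11-fold lower level (limma adjusted p = 0.00012). In Tc1 it was -0.21 ± 0.14 (adjusted p = 0.998), and the effects differed by -1.43 ± 0.20 (adjusted p = 0.00502). From high to low the order was Tc1 WT, Tc1 STAT3-/-, Tc17 WT and Tc17 STAT3-/-, and only the last step passed the test.

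Between culture conditions, the Cxcr6 difference was called in STAT3-/- cells and not in WT cells. Tc17 STAT3-/- cells were lower than Tc1 STAT3-/- cells by a log2 change of -1.69 ± 0.14 (adjusted p = 0.000573), while Tc17 WT and Tc1 WT cells differed by -0.26 ± 0.14 (95% interval -0.58 to 0.07, adjusted p = 0.211). The WT difference depended on the arrays: it was -0.50 and -0.52 between biological arrays of the same number and 0.49 between the technical arrays, and with the technical arrays left out it was called at -0.51 (adjusted p = 0.00377). On chromosome 9 the nearest tested genes beside Cxcr6, looked up after its values were seen, were Lztfl1, Fyco1 and Gm20783. In Tc17 their STAT3-/- over WT changes by limma were -0.08 (adjusted p = 0.541) for Lztfl1, -0.40 (adjusted p = 0.0332) for Fyco1 and 0.02 (adjusted p = 0.896) for Gm20783.

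Promoter windows of 300 bases, from 250 before to 50 after a gene's start, were taken from RefSeq (GRCm38.p6) and searched on both strands for TTCNNNGAA and the same motif with 1 more N, the spaced palindromes that STAT proteins are known to bind, and for CACCC, the core known for KLF factors. The table held windows for 6 of the 9 receptors, and Ccr7, Cxcr5 and S1pr1 had none. Of all 32851 windows 8.3% held TTCNNNGAA, 6.95% its longer form and 57.5% CACCC. The windows below belong to Cxcr6 (chr9:123806227-123806526, plus strand) and Ccr4 (chr9:114496495-114496794, minus strand), which fell most among those with a window, Ccr8 (chr9:120091883-120092182, plus strand), which rose, and Ccr6 (chr17:8235793-8236092, plus strand), which held STAT-type matches. Capitals mark the matches.
Cxcr6: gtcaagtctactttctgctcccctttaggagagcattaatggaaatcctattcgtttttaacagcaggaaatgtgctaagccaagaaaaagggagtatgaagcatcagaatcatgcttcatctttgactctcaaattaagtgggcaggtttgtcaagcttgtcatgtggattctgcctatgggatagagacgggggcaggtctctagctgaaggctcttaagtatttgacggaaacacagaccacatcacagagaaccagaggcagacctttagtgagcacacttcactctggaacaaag
Ccr4: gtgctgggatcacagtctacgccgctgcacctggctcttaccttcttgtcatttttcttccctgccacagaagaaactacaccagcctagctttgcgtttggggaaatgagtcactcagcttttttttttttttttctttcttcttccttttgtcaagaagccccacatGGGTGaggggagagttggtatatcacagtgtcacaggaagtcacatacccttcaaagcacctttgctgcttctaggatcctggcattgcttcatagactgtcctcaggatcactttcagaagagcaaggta
Ccr8: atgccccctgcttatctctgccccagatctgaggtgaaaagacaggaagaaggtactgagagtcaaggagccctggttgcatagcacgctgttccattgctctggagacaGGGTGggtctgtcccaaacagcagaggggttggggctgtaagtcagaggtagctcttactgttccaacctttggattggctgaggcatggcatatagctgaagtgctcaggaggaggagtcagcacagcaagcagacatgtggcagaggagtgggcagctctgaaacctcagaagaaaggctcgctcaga
Ccr6: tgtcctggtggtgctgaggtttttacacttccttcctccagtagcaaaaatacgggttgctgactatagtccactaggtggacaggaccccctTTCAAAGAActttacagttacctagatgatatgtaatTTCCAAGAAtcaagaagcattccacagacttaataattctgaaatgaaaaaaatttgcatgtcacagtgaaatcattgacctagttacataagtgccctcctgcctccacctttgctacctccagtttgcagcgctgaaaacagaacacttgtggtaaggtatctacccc
The Ccr6 window held 2 matches to TTCNNNGAA, at -157 and -120 from the start, as 0.457% of all windows held 2 or more. That window was picked for its matches, so the share is a description and tests nothing. A further Ccr6 window held none of the 3 motifs, nor did those of Cxcr6 and Cxcr3. Ccr4, Ccr8 and Cxcr4 each held CACCC once, with none of the STAT-type motifs. A match shows only that these letters stand in the window.

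Ccr4, Ccr7 and Cxcr5 were each highest in Tc17 WT cells, and for each the step down to Tc17 STAT3-/- cells passed the test. Their means were lower still in both Tc1 groups, but the step from Tc17 STAT3-/- to Tc1 STAT3-/- cells passed for none of them. CCR4 binds CCL17 and CCL22 and is known from skin-homing, type 2 and regulatory T cells. Ccr4 was 7.67, 7.61 and 6.95 in Tc17 STAT3-/- cells, against 8.97, 8.87 and 8.41 in Tc17 WT cells. In Tc1 cells it was 6.80, 6.55 and 7.0 in STAT3-/-, against 6.78, 6.73 and 6.81 in WT. The Tc17 groups did not overlap, the Tc1 groups did, and the Tc17 STAT3-/- technical array fell within the Tc1 STAT3-/- range. STAT3 loss lowered Ccr4 by a log2 change of -1.33 ± 0.15 in Tc17 (limma adjusted p = 0.000425), against 0.02 ± 0.15 in Tc1 (adjusted p = 0.998), and these effects differed by -1.35 ± 0.21 (adjusted p = 0.00715).

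Between culture conditions, the Ccr4 difference was called in WT cells and not in STAT3-/- cells. Tc17 WT exceeded Tc1 WT cells by 2.03 ± 0.15 (adjusted p = 3.48e-05), while Tc17 STAT3-/- exceeded Tc1 STAT3-/- cells by 0.69 ± 0.15 (95% interval 0.35 to 1.02, adjusted p = 0.0553). Without STAT3 the difference was 0.87 and 1.06 on the biological arrays but -0.05 on the technical arrays, and 10 of 23 alternative settings called it.

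CCR7 is the lymph node entry receptor for CCL19 and CCL21, and naive and central memory T cells carry it. Ccr7 was 8.93, 8.94 and 9.04 in Tc17 STAT3-/- cells, against 10.03, 10.08 and 9.85 in Tc17 WT cells. The Tc1 cells had 8.69, 8.48 and 7.83 in STAT3-/-, against 8.71, 8.68 and 7.51 in WT, so both Tc1 technical arrays were low. STAT3 loss lowered it by a log2 change of -1.04 ± 0.21 in Tc17, a 2.05-fold lower level (adjusted p = 0.00843), a call that did not stand without Tc17 STAT3-/- replicate 1 (adjusted p = 0.0563). The change in Tc1 was 0.02 ± 0.21, but the difference between the effects, -1.06 ± 0.30, did not pass (adjusted p = 0.0708). Tc17 over Tc1 was 1.59 ± 0.21 in WT cells (adjusted p = 0.00114), against 0.54 ± 0.21 in STAT3-/- cells (adjusted p = 0.376).

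Ccr7 lies on chromosome 11, as does Stat3, with 90 protein-coding genes between them in RefSeq. In Tc1 cells of the same genotypes, Ccr7 did not differ beyond its spread between genotypes (95% interval -0.46 to 0.50). The part of the shared chromosome in the Ccr7 result was not tested. Genes beside Ccr7 were looked up outside the rule for naming genes. The tested gene next to Ccr7, Igfbp4, whose product binds insulin-like growth factors, changed by -3.12 in Tc17 (limma adjusted p = 6.82e-07). Its Tc1 change was 0.03. The other naive T cell markers tested were also lower in Tc17 STAT3-/- than in Tc17 WT cells, Lef1 by -0.40 (adjusted p = 0.0473) and Il7r by -0.33 (adjusted p = 0.0248), so that with Ccr7 itself 3 of 3 were lower, against 6.83% of all genes. Smarce1, on the other side, changed by 0.16 in Tc17 (adjusted p = 0.357).

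CXCR5 binds CXCL13 and draws B cells and follicular T cells into follicles. Cxcr5 was dim, at 4.96, 4.94 and 5.14 in Tc17 STAT3-/- cells, against 5.92, 5.76 and 5.66 in Tc17 WT cells. Tc1 levels were 4.61, 4.74 and 4.70 in STAT3-/-, against 4.93, 4.75 and 4.69 in WT. Tc17 WT arrays lay above all 9 others, and Cxcr5 passed the filter (a group mean of at least 5) only through that group. Its log2 change in Tc17 was -0.81 ± 0.11 (limma adjusted p = 0.00141), against -0.16 ± 0.11 in Tc1 (adjusted p = 0.998). The effects differed by -0.65 ± 0.16 (adjusted p = 0.0446), a call that 11 of 21 alternatives kept. Tc17 over Tc1 was 0.99 ± 0.11 in WT cells (adjusted p = 0.000529), against 0.34 ± 0.11 in STAT3-/- cells (adjusted p = 0.272). The mean over 5 B cell markers was 5.69 to 5.76 on Tc17 STAT3-/- arrays, 5.22 to 5.31 on Tc17 WT, 5.52 to 5.65 on Tc1 STAT3-/- and 5.49 to 5.53 on Tc1 WT arrays. Of the 5, Ighm (1.77) and Cd79b (0.78) were tested and higher in Tc17 STAT3-/- than in Tc17 WT cells. Cd79a, Ms4a1 and Pax5 were below the filter, at 3.81, 2.37 and 3.97 in Tc17 STAT3-/- cells, against 3.89, 2.51 and 3.97 in Tc17 WT cells.

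S1pr1 also fell without STAT3 in Tc17 cells, but to below the Tc1 range. It was 6.23, 6.14 and 5.39 in Tc17 STAT3-/- cells, against 7.21, 7.19 and 7.60 in Tc17 WT cells. In Tc1 cells it was 6.81, 6.45 and 6.56 in STAT3-/-, against 6.60, 6.47 and 6.49 in WT. The Tc17 STAT3-/- arrays lay below all others and the Tc17 WT arrays above all others, and both Tc17 technical arrays were the extremes of the 12. The log2 change was -1.30 ± 0.16 in Tc17, a 2.47-fold lower level (limma adjusted p = 0.000842), against 0.12 ± 0.16 in Tc1 (adjusted p = 0.998), and the effects differed by -1.42 ± 0.23 (adjusted p = 0.00915). On the arrays taken by class the Tc17 change was -0.98 and -1.05 on the biological and -2.2 on the technical ones.

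For S1pr1 the Tc17 condition went with a lower level in STAT3-/- cells and a higher one in WT cells. Tc17 over Tc1 was -0.66 ± 0.16 in STAT3-/- cells (95% interval -1.03 to -0.29, adjusted p = 0.099) and 0.76 ± 0.16 in WT cells (adjusted p = 0.0106). Only the WT difference passed, and without Tc17 WT replicate 2 or Tc1 WT replicate 2 it was lost (adjusted p = 0.062 and 0.061). In order of level, Tc17 WT exceeded Tc1 STAT3-/- cells by 0.64 (adjusted p = 0.0187), and the steps from Tc1 STAT3-/- to Tc1 WT and from there to Tc17 STAT3-/- did not pass.

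Ccr8 was the receptor that rose. CCR8 binds CCL1 and is known from skin T cells, type 2 cells and regulatory T cells. Its level was 5.22, 5.23 and 5.84 in Tc17 STAT3-/- cells, against 4.84, 4.46 and 4.72 in Tc17 WT cells. The Tc1 cells had 3.88, 4.03 and 4.36 in STAT3-/-, against 4.14, 4.04 and 4.12 in WT. The 3 levels did not overlap: Tc17 STAT3-/-, then Tc17 WT, then both Tc1 groups, which overlapped each other. Ccr8 passed the filter only through Tc17 STAT3-/- cells. STAT3 loss raised it by 0.66 ± 0.15 on the log2 scale in Tc17 (limma adjusted p = 0.0122), a call that did not stand when Tc17 STAT3-/- replicate 2 (adjusted p = 0.101) or Tc17 WT replicate 2 (adjusted p = 0.0692) was left out. The Tc1 change was -0.07 ± 0.15, and the difference of effects, 0.73 ± 0.21, did not pass (adjusted p = 0.0721).

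At the threshold used, Ccr8 was the 1 receptor of the list called higher in Tc17 than in Tc1 cells in both genotypes. Ccr4, Ccr7 and Cxcr5 were also higher in both, but their STAT3-/- differences (0.69, 0.54 and 0.34) were not called. For Ccr8, Tc17 over Tc1 was 1.34 ± 0.15 in STAT3-/- cells (limma adjusted p = 0.00206) and 0.61 ± 0.15 in WT cells (adjusted p = 0.0177). The WT call was lost without Tc17 WT replicate 1 or either Tc1 WT sample (adjusted p = 0.0669, 0.0696 and 0.0833). All 3 regulatory T cell markers, Foxp3 (1.00), Ikzf2 (1.43) and Lrrc32 (0.92), were higher in Tc17 STAT3-/- than in Tc17 WT cells, as were 18.2% of all genes. Across culture conditions they differed among themselves. Tc17 over Tc1 in STAT3-/- cells was 3.16 for Foxp3, 0.87 for Ikzf2 and 0.05 for Lrrc32, and in WT cells it was 2.02 for Foxp3, -0.09 for Ikzf2 and -0.84 for Lrrc32. Their mean log2 level was 9.04 to 9.50 on Tc17 STAT3-/- arrays, 7.84 to 8.59 on Tc17 WT, 7.62 to 7.87 on Tc1 STAT3-/- and 7.65 to 7.70 on Tc1 WT arrays, and the part of these cells in the Ccr8 result was not tested. In bulk RNA fewer cells with a receptor and less RNA per cell cannot be told apart.

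Cxcr3 and Cxcr4 were not called for STAT3 in either condition. CXCR3 binds the interferon-induced chemokines CXCL9 and CXCL10 and takes type 1 cells into inflamed tissue. Cxcr3 was 5.74, 5.38 and 5.53 in Tc17 STAT3-/- cells, against 4.56, 5.34 and 5.34 in Tc17 WT cells. Tc1 levels were 4.97, 5.33 and 5.46 in STAT3-/-, against 5.15, 5.40 and 5.59 in WT. Tc17 WT biological array 1 was the lowest of the 12, and on the other arrays the Tc17 groups were close. By array the Tc17 difference was 1.18 and 0.05 on the biological and 0.19 on the technical arrays. The change was 0.65 ± 0.25 (95% interval 0.08 to 1.22, limma adjusted p = 0.0881). It was called without Tc17 WT replicate 2 (1.04, adjusted p = 0.019) and with the replicate number as a block (adjusted p = 0.0385), and in no other of 22 alternatives. No step in the order of its 4 group levels passed.

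CXCR4, the receptor for CXCL12, is carried by most T cells and by bone marrow-homing cells. Cxcr4 was 8.81, 8.82 and 9.01 in Tc17 STAT3-/- cells, against 9.26, 9.09 and 9.31 in Tc17 WT cells. In Tc1 cells it was 9.26, 9.0 and 8.77 in STAT3-/-, against 8.87, 8.82 and 8.45 in WT. Within each array class the STAT3-/- array was lower than WT in Tc17 and higher than WT in Tc1. Neither change passed. It was -0.36 ± 0.14 in Tc17 (limma adjusted p = 0.0806). In Tc1 it was 0.32 ± 0.14 (95% interval 0.01 to 0.63, limma adjusted p = 0.998). The difference of effects was -0.68 ± 0.19 (adjusted p = 0.0707), and 8 of 22 alternatives called it. The Tc17 change was called by 10 of 23 alternatives, with values between -0.29 and -0.50 over all settings.

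**Figure D2:**
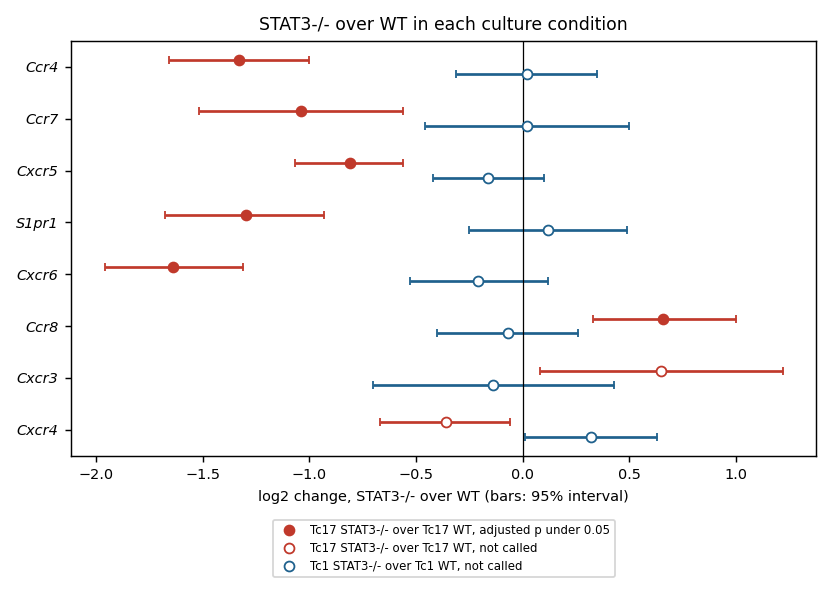
Log2 change of STAT3-/- over WT cells (horizontal axis) for the 8 tested receptors, in Tc17 (red) and Tc1 (blue), with 95% intervals and n = 2 samples per group. Filled points passed an adjusted p under 0.05. In Tc17 the changes ran from -1.64 for Cxcr6 to 0.66 for Ccr8, and no Tc1 change passed.

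Ccr6 was too dim to be tested, with no group mean at 5. CCR6 binds CCL20 and marks type 17 cells, which it leads to mucosa and inflamed skin. It was 3.37, 3.35 and 3.43 in Tc17 STAT3-/- cells, against 4.18, 4.51 and 4.82 in Tc17 WT cells. The Tc1 cells had 3.30, 3.38 and 3.47 in STAT3-/-, against 3.36, 3.14 and 3.44 in WT. The Tc17 WT arrays stood above all 9 others, which shared one low range below the array medians. The mean difference was -1.05 in Tc17 and 0.03 in Tc1, and RMA narrows differences this close to background. In the fit with no dim filter the Tc17 change had an adjusted p of 0.00207 by limma and the difference of effects one of 0.0318.

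The effect of the culture condition was then set side by side in the genotypes. Between Tc17 and Tc1 cells, limma called 1 higher and 1 lower of the 8 receptors without STAT3, Ccr8 and Cxcr6 (against 1.05% and 1.01% of all genes, 2.07% in all). With STAT3 it called 6 higher and 0 lower (against 7.01% and 18% of all genes, 25% in all), Ccr4, Ccr7, Ccr8, Cxcr4, Cxcr5 and S1pr1. The Cxcr4 rise, 0.47 ± 0.14 (adjusted p = 0.0337), was called in 14 of 23 alternatives. Of all genes the genotype effect differed between conditions for 6.85%, and among the receptors for 4, Ccr4, Cxcr5, Cxcr6 and S1pr1, all more negative in Tc17 (against 2.37% of all genes). Ccr8 and Cxcr5, counted here, were tested only because the group where each was highest reached the filter.

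**Figure D3:**
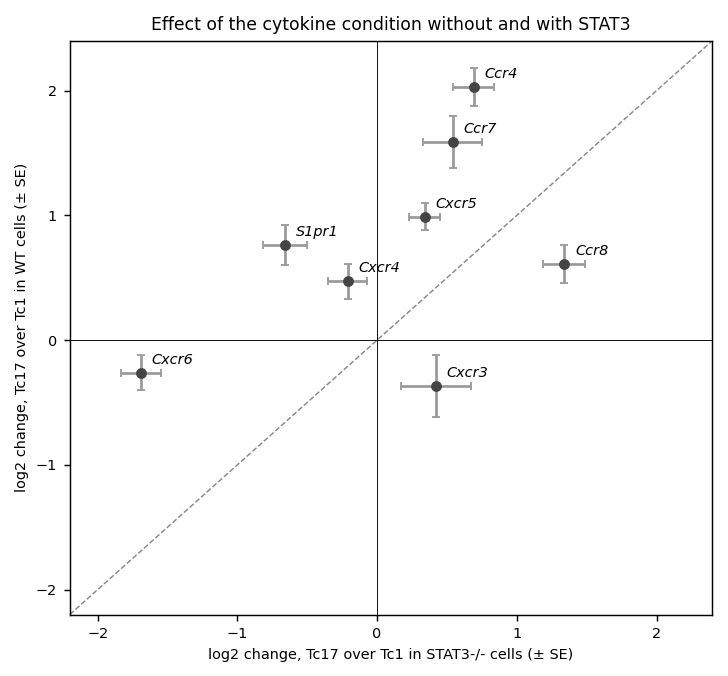
Log2 change of Tc17 over Tc1 cells without STAT3 (horizontal axis) and with it (vertical axis) for the 8 tested receptors, with bars for the SE and a dashed line of equal change. Ccr8 (1.34 without STAT3, 0.61 with it) and Cxcr3 (0.42 without STAT3, -0.37 with it) lay right of the line, and Ccr4, Ccr7, Cxcr5, S1pr1, Cxcr4 and Cxcr6 lay above it.

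By the calls for STAT3 in Tc17 and for the culture condition in STAT3-/- cells, the 8 receptors fell into 3 sets. Ccr4, Ccr7, Cxcr5 and S1pr1 passed only for STAT3, Ccr8 and Cxcr6 passed for both, Cxcr3 and Cxcr4 passed for neither, and no receptor passed for the culture condition alone. These sets depend on the adjustment, which was made within each comparison. For the culture condition without STAT3, 6 of 8 receptors had an unadjusted limma p under 0.05. Ccr4 (unadjusted p = 0.0012) and S1pr1 (0.003) were not called there, while Ccr8 was called for STAT3 at 0.0015. A receptor not called is thus not shown to be unchanged. Cxcr5 and Ccr8 were tested only because the group where each was highest reached the filter, so their places in these sets are a description. Comparisons that share a group share its samples, so these calls are not independent of each other. Arrays of Tc17 STAT3-/- and Tc17 WT cells did not overlap for any of the 8, as for 44.3% of all genes, and those of the Tc1 genotypes overlapped for all 8, where 7.79% of all genes did not overlap.

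Levels of Ccr4, Ccr7 and Cxcr5 ran together over the 8 samples, with Pearson r of 0.944 for Ccr4 and Ccr7, 0.962 for Ccr4 and Cxcr5 and 0.941 for Ccr7 and Cxcr5. Ccr8 and Cxcr6 ran opposite each other (r = -0.88). These are descriptions of 4 groups of 2 samples each, not tests. Among 457 or 458 tested genes whose group means spanned at least 1, those most like Ccr4 were Muc13 (r = 0.995), Asb2 (0.994) and Cd86 (0.993). For Cxcr6 they were Mctp2 (0.986), Cd68 (0.966) and Casp4 (0.902), and Cd68, on the list of myeloid markers, averaged 6.80 in Tc17 STAT3-/-, 7.92 in Tc17 WT, 7.78 in Tc1 STAT3-/- and 7.81 in Tc1 WT cells. The other 7 myeloid markers were below the filter, and the part of such cells in the Cxcr6 result was not tested. For S1pr1 they were Ermn (0.974), Chd7 (0.966) and Alpk2 (0.964), and for Ccr8 Izumo1r (0.973), Tespa1 (0.944) and Ebi3 (0.936). Aff3 (0.977) and Dpy19l3 (0.975) followed the small RNA Scarna17 (0.988) for Ccr7, and Castor1 (0.991), Acsl6 (0.988) and Slc15a1 (0.984) came first for Cxcr5. Likeness was weaker for Cxcr4, with Vwa5a (0.863), Nos2 (0.821) and Creb3l2 (0.805), and for Cxcr3, with H2bc9 (0.755), Eno3 (0.755) and Cables1 (0.747).

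Other receptors of the family were mostly dim. Of 20 further chemoattractant receptors 19 had a probe set used here, and 15 of these had no group mean above 4.70. Of the 4 tested, 2 were lower and 1 higher in Tc17 STAT3-/- than in Tc17 WT cells, against 6.83% and 18.2% of all genes. In Tc1, 0 of 4 were called, against 0.0608% of all genes. Gpr183, the receptor EBI2 for oxysterols that guides cells to the edges of follicles, was 6.34, 6.54 and 6.54 in Tc17 STAT3-/- cells, against 7.74, 7.58 and 7.54 in Tc17 WT cells. It fell by 1.21 on the log2 scale (limma adjusted p = 0.000318) and averaged 7.09 in Tc1 STAT3-/- and 7.06 in Tc1 WT cells, so that, like Cxcr6 and S1pr1, it was lowest in Tc17 STAT3-/- cells. Ccrl2, an atypical receptor that presents chemerin, rose by 0.98 (adjusted p = 0.00108), and Cxcr1, which reached the filter only in Tc17 WT cells, changed by -0.79 (adjusted p = 0.0121). Gpr15, a gut-homing receptor singled out after its values were seen, was untested at 2.59, 2.83 and 3.05 in Tc17 STAT3-/- cells, against 4.10, 4.10 and 4.92 in Tc17 WT cells, and at 2.76 to 2.97 on Tc1 STAT3-/- and 2.55 to 3.10 on Tc1 WT arrays.

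Of 16 other listed S1P receptors, enzymes and regulators, 8 were tested, and 2 were higher and 0 lower in Tc17 STAT3-/- than in Tc17 WT cells. These counts were near the 18.2% higher and 6.83% lower among all genes. Klf2, which encodes a transcription factor known to activate S1pr1, was 6.54, 6.45 and 6.38 in Tc17 STAT3-/- cells, against 5.41, 5.47 and 5.67 in Tc17 WT cells. It rose by 0.99 (limma adjusted p = 0.000308), and averaged 6.61 in Tc1 STAT3-/- and 6.35 in Tc1 WT cells. S1pr4, another S1P receptor of lymphocytes, rose by 0.30 (adjusted p = 0.0438). Cd69, whose product pulls S1PR1 from the surface and which was picked after its values were seen, changed by -0.36 (adjusted p = 0.219).

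Of 15 listed ligands 13 were measured and 1, Mif, was bright enough to test (0.10 in Tc17, adjusted p = 0.417). Of 26 tested genes for G protein signalling and desensitisation, 5 were higher, 1 lower and 20 not called in Tc17, with a median change of 0.08, near the shares of all genes (18.2% higher and 6.83% lower). Pik3cg, the phosphoinositide 3-kinase subunit that G protein-coupled receptors engage, rose by 1.05 (adjusted p = 6.92e-05), and Ptk2b, the kinase PYK2, by 0.47 (adjusted p = 0.00953). Arrb1, encoding beta-arrestin 1, fell by 0.44 (adjusted p = 0.0133). Integrins and selectin ligand enzymes of lymph node entry had 5 of 14 higher and 0 lower, against 18.2% and 6.83% of all genes. The largest were the integrin chains Itga4 (0.70, adjusted p = 0.00136) and Itgb1 (0.57, adjusted p = 0.0119) and the fucosyltransferase Fut7 (0.56, adjusted p = 0.0192).

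Of 20 tested transcription factors known from work on receptor control, Stat3 included, 10 were lower and 6 higher in Tc17 STAT3-/- than in Tc17 WT cells, against 6.83% and 18.2% of all genes. Maf, a type 17 and follicular factor, changed by -3.21 (limma adjusted p = 4.71e-06) and Prdm1, encoding Blimp-1, by 1.47 (adjusted p = 0.000132). Maf and Bcl6, both counted as lower, were tested only because Tc17 WT, the group where each was highest, reached the filter. Their calls are therefore a description. In Tc1 cells Stat3 was the 1 member called. Between Tc17 and Tc1 cells without STAT3, 2 were higher and 2 lower, against 1.05% and 1.01% of all genes, with Foxp3 at 3.16 (adjusted p = 0.000132), the aryl hydrocarbon receptor gene Ahr at 1.33 (adjusted p = 0.00391) and Eomes at -0.92 (adjusted p = 0.0219). The integrin gene Itgae, which TGF-beta is known to induce, was higher in Tc17 than in Tc1 cells by 3.89 in STAT3-/- (adjusted p = 5.79e-05) and by 4.05 in WT cells (adjusted p = 4.83e-06), with an interaction of -0.16 (adjusted p = 0.758).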

How the data were processed

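Per the submitters' processing notes, the authors used RMA and Partek to make the deposited log2 values, 1 per probe set and array, from 12 Affymetrix arrays. Their versions and the step each served: not given in the sources used here. RMA narrows differences near background. Of 41345 probe sets 23521 had exactly 1 gene symbol, and the brightest per gene was kept (22180 genes). Genes with a group mean of at least 5 were tested (9862). The technical array was averaged with biological array 2, whose number it shares, giving 8 samples. The labels name no animals or cultures for the replicates, so p-values reflect only how these samples varied, possibly through handling, and the number of arrays limits precision.

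Group means were fitted in limma 3.58.1 (R 4.3.3, lmFit and eBayes, 4 residual and 4.87 prior degrees of freedom). All p-values are two-sided and, where adjusted, Benjamini-Hochberg adjusted over all genes tested. Alternatives changed the use of the technical arrays, the dim filter, the choice among probe sets, the scaling, the fit and the samples left out. The fit was tested on simulated data. Genes named by rule were all receptors of the list, up to 3 called members with the largest change per related list, and the 3 genes most correlated with each receptor over the 8 samples. Cell type markers were named to give values beside a result. The neighbours of Cxcr6 and Ccr7, and Gpr15 and Cd69, were named outside the rule. The motif search was meant for tested receptors, and the Ccr6 windows were searched beyond that. The receptors, lists and tests were chosen with earlier results of these data known. Sequences are from RefSeq GRCm38.p6. R's data.table package (version 1.17.8), Python 3.11.15, pandas 2.3.3 and matplotlib 3.10.9 were used.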

Additional observations from a re-analysis of the deposited data

Results flagged for a closer look

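The STAT3-/- effect differed between Tc17 and Tc1 cells, by the interaction term in limma, for 4 of the 8 tested receptors. Of all genes it differed for 6.85%, and these shares only describe a list chosen with results of these data known. The difference was -1.43 for Cxcr6 (adjusted p = 0.00502), -1.42 for S1pr1 (0.00915), -1.35 for Ccr4 (0.00715) and -0.65 for Cxcr5 (0.0446). Each alternative tested called the first 3 of these, 22 of 22 for each, and 11 of 21 called Cxcr5, which was tested only because Tc17 WT, its highest group, reached the filter. With 2 samples per group no outlying sample could be looked for.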

How the results depend on the processing

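Over 24 alternatives, STAT3 loss in Tc17 cells kept its direction for all 9 receptors, and 4 to 8 of them were called (main 6). The interaction called 7 receptors (1 higher, 6 lower) with the technical arrays left out, and 7 with them averaged with biological replicate 1, against 4. Tc17 over Tc1 in STAT3-/- cells called 4 with that averaging and 4 with the replicate block, against 2. Tc17 WT over Tc1 STAT3-/- called 3 with the dim filter at 6, against 5, as fewer receptors were tested. Otherwise the cause was not tested. Leaving out 1 sample gave 5 to 7 for STAT3 loss in Tc17, 0 to 0 in Tc1, 3 to 5 for the interaction and 2 to 3 for Tc17 over Tc1 in STAT3-/- cells. Tc17 over Tc1 in WT cells gave 3 to 6, with 3 without Tc1 WT replicate 2.

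WT and STAT3-/- cells shared each culture, but the labels tie no replicate to a culture, and the main fit took the samples as unpaired. The replicate block used the labels' 2 numbers, which were not shown to pair the samples. Deviations of same-numbered samples correlated at 0.098 to 0.455, and at 0 to 0.172 without technical arrays. Both upper values belonged to the Tc1 genotypes, and those of the Tc17 genotypes were 0.099 and 0.029.

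Differences that changed sign in an alternative fit were uncalled. The largest of them in the main fit was -0.37, for Cxcr3 in Tc17 WT over Tc1 WT. The technical arrays alone, which allow no test, reversed further differences. Among these, Cxcr6 in Tc17 WT over Tc1 WT was 0.49, against -0.26 in the main fit and a called -0.51 without technical arrays. In Tc17 STAT3-/- over Tc1 STAT3-/-, Cxcr4 was 0.25 against -0.21 and Ccr4 -0.05 against 0.69. In Tc1 STAT3-/- over Tc1 WT, Ccr4 was -0.07 and Ccr7 -0.11 without technical arrays, both were -0.03 with them averaged with replicate 1, and Ccr7 was 0 after quantile normalization. In Tc17 STAT3-/- over Tc1 WT, Cxcr4 was -0.03 without technical arrays. In Tc17 WT over Tc1 STAT3-/-, Cxcr6 was 0 with them averaged with replicate 1, 0.04 with them as samples of their own, 0.04 with array class as a block, 0.07 after subtracting the median of tested genes, 0.05 after quantile normalization and 0.06 after cyclic loess. Leaving out 1 sample gave ranges, in Tc1 STAT3-/- over Tc1 WT, of -0.29 to 0.33 for Ccr7, -0.23 to 0.09 for Ccr8, -0.35 to 0.08 for Cxcr3 and -0.04 to 0.27 for S1pr1. Cxcr3 ranged over -0.76 to 0.02 in Tc17 WT over Tc1 WT and -0.62 to 0.16 in Tc17 WT over Tc1 STAT3-/-, where Cxcr4 ranged over -0.03 to 0.35 and Cxcr6 over -0.21 to 0.12. Cxcr4 ranged over -0.01 to 0.23 in Tc17 STAT3-/- over Tc1 WT.

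Over all genes, the interaction called 676 genes, 1259 without technical arrays, 1018 with the replicate block, 384 with no dim filter and 244 to 1555 with 1 sample left out. STAT3 loss in Tc17 called 943 to 3191 with 1 sample left out, against 2473, and in Tc1 4 to 24 over all settings, against 6. Tc17 over Tc1 called 1100 to 3232 in WT cells, against 2468, and 65 to 409 in STAT3-/- cells, against 204.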
